A study of Schizosaccharomyces pombe with 2 samples.

Results

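The core environmental stress response of fission yeast was examined through 10 genes chosen by name, *sty1*, *atf1*, *pyp2*, *ctt1*, *gpx1*, *gpd1*, *tps1*, *ntp1*, *hsp9* and *hsp16*, out of 5113 protein-coding genes in the annotation. All full-length transcript models that overlapped these genes on either strand were collected from both Iso-Seq libraries of *S. pombe*, sequenced on a PacBio instrument, which gave 51 of 26057 models on chromosomes I to III in one library and 167 of 69823 in the other. The first library came from untreated wild-type cells of mating type h+ with the alleles ade6-M216, leu1-32 and ura4-D18 and is called untreated WT. The second, called the stress pool, mixed cells of that genotype with cells that also carried hrp1del::kanMX and hrp3del, and within both genotypes it mixed untreated cells with cells given 14 mM caffeine or 200 ng/ml clotrimazole. Hrp1 and Hrp3 are chromatin remodelers of the CHD family. Both libraries came from cultures in YES, a rich medium, at 32 °C and an OD600 of about 0.5. Because the second library is a single pool, no model in it can be assigned to a genotype or a drug, and genotype, drug and library size cannot be told apart. Both labels name the same batch, while the series text describes separate runs for the libraries, so the run may differ along with them. Since the pool also holds wild-type cells, models of *hrp1* and *hrp3* cannot check the deletions. Each condition was represented by 1 library, so no test was made between libraries. A model is a set of reads that the authors collapsed into 1 start, end and exon structure, and its read number was not given, so the number of models over a gene describes how many distinct structures were recovered and is not an expression level.

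Sty1 is the stress-activated MAP kinase of fission yeast. Under osmotic, oxidative, heat or nutritional stress it is phosphorylated by the upstream kinase Wis1 and acts on Atf1, a bZIP transcription factor that binds cAMP response elements together with Pcr1, while Pyp2, a tyrosine phosphatase whose gene is itself a target of Atf1, removes the phosphate from Sty1 and closes a negative feedback loop. The induced genes encode protective proteins. Ctt1 is the catalase and Gpx1 the glutathione peroxidase, both of which detoxify peroxides. Gpd1 makes glycerol 3-phosphate for the osmolyte glycerol, Tps1 makes trehalose phosphate and Ntp1 is the neutral trehalase. Hsp9 and Hsp16 are heat shock proteins of 68 and 143 residues.

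The promoters were read first, since the cAMP response element is the sequence by which this pathway is known to act. The 6 letters TGACGT, the core of that element, were searched on both strands in the 300 bases upstream of the commonest start of sense models, and 5 of the 10 genes, *atf1*, *pyp2*, *ctt1*, *gpd1* and *ntp1*, held it, against 6.13% of 4908 genes with a usable start. In the window from 250 bases before to 50 after the annotated start, 4 of the 10 genes held it, against 5.91% of 5113, and the gene that differed was *pyp2*. The letters GAANNTTC, a core of the heat shock element that reads the same on both strands, were found only in *hsp16* among the 10, against 10.9% of 4908 genes. The 160 bases before the commonest start of these 6 genes are given here from the RefSeq genome ASM294v3, read 5′ to 3′ in the direction of the gene, with the matched letters in capitals.
atf1, chrII:1546065-1546224, plus strand: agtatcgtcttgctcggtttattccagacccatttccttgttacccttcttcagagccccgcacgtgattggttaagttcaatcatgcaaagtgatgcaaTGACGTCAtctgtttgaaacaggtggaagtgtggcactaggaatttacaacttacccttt
pyp2, chrI:5201864-5202023, plus strand: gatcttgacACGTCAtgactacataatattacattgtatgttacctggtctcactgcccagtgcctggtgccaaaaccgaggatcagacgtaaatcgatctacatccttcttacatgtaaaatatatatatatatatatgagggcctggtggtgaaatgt
ctt1, chrIII:58834-58993, minus strand: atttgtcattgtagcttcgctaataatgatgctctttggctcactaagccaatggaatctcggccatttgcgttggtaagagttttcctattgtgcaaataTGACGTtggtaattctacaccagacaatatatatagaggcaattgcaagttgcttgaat
gpd1, chrII:4035406-4035565, plus strand: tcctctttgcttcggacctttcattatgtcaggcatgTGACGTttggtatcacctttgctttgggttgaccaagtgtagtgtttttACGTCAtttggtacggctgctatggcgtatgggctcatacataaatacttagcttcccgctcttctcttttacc
ntp1, chrII:206411-206570, plus strand: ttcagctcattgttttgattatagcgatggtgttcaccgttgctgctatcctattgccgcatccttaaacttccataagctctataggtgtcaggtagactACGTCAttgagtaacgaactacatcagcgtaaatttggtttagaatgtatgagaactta
hsp16, chrII:2660993-2661152, minus strand: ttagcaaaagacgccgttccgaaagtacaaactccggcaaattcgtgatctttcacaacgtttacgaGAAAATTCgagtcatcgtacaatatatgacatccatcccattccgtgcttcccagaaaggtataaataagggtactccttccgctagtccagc
In *atf1* the element was palindromic, so that TGACGT was matched on both strands at 60 and 58 nt before the start, and both matches overlap. The matches in *ctt1* and *ntp1* each began 59 nt before the start, on opposite strands. *gpd1* held separate matches at 123 and 74 nt, *pyp2* 1 at 151 nt, and *hsp16* held its heat shock element at 93 nt. In 3 genes, *atf1*, *ctt1* and *ntp1*, the element therefore lay at almost the same distance from the start. A match is a stretch of letters and not a measured binding site, and the lack of TGACGT at *sty1*, *gpx1*, *tps1*, *hsp9* and *hsp16* says only that these letters were not in the window.

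All 10 genes had sense models in untreated WT, where 91.1% of all genes did, and in the stress pool, where 98.7% did. A sense model is one that overlaps at least 1 coding base of the gene on its own strand, and a complete model holds every coding base. Complete models were present for 10 of 10 genes in untreated WT, where the share over all genes was 87.7%, and for 10 of 10 in the stress pool, where it was 96.4%. In untreated WT 42 of 44 sense models were complete (95.5%, exact Clopper-Pearson 95% interval 84.5 to 99.4) and in the stress pool 89 of 109 (81.7%, 73.1 to 88.4). These intervals cover counting error only and treat models of 1 gene as independent, although *sty1* and *tps1* gave 10 and 11 of the 44. The share of complete models over all genes is not given.

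The number of sense models differed widely between the genes. In the signalling branch, *sty1* had 10 models in untreated WT and 18 in the stress pool, *atf1* had 6 and 14, and *pyp2* had 1 and 4. For the antioxidant enzymes the numbers were 3 and 9 at *ctt1* and 2 and 10 at *gpx1*. The metabolic enzymes ranged from *gpd1*, with 3 and 8, through *ntp1*, with 5 and 13, to *tps1*, with 11 and 19. The heat shock protein genes were thinly covered in untreated WT, with 2 models of *hsp9* against 11 in the stress pool and 1 of *hsp16* against 3. The kinase and the trehalose phosphate synthase thus had the most structures in both libraries, and the phosphatase and *hsp16* the fewest.

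Every gene had more models in the larger library. Scaled per 10000 models of the library, the ratio of stress pool to untreated WT was 2.05 at *hsp9*, 1.87 at *gpx1* and 1.49 at *pyp2*, close to 1 at *ctt1* (1.12), *hsp16* (1.12), *gpd1* (0.995) and *ntp1* (0.970), and below 1 at *atf1* (0.871), *sty1* (0.672) and *tps1* (0.645). The median ratio was 1.06 over the 10 genes and 0.871 over the 4655 genes with sense models in both libraries. Only *hsp9* reached a 2-fold higher number, 1 of 10 genes, against 7.35% of all genes. None reached a 2-fold lower number, against 8.21%. The call depended on the scaling: *hsp9* and *gpx1* passed when the libraries were scaled by their sense models over protein-coding genes, against 467 of 4655 genes, and 8 of 10 genes passed with no scaling, against 67.6%. With 1 or 2 models in untreated WT, a ratio at *hsp9*, *gpx1*, *pyp2* or *hsp16* changes strongly with a single model.

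**Figure D1:**
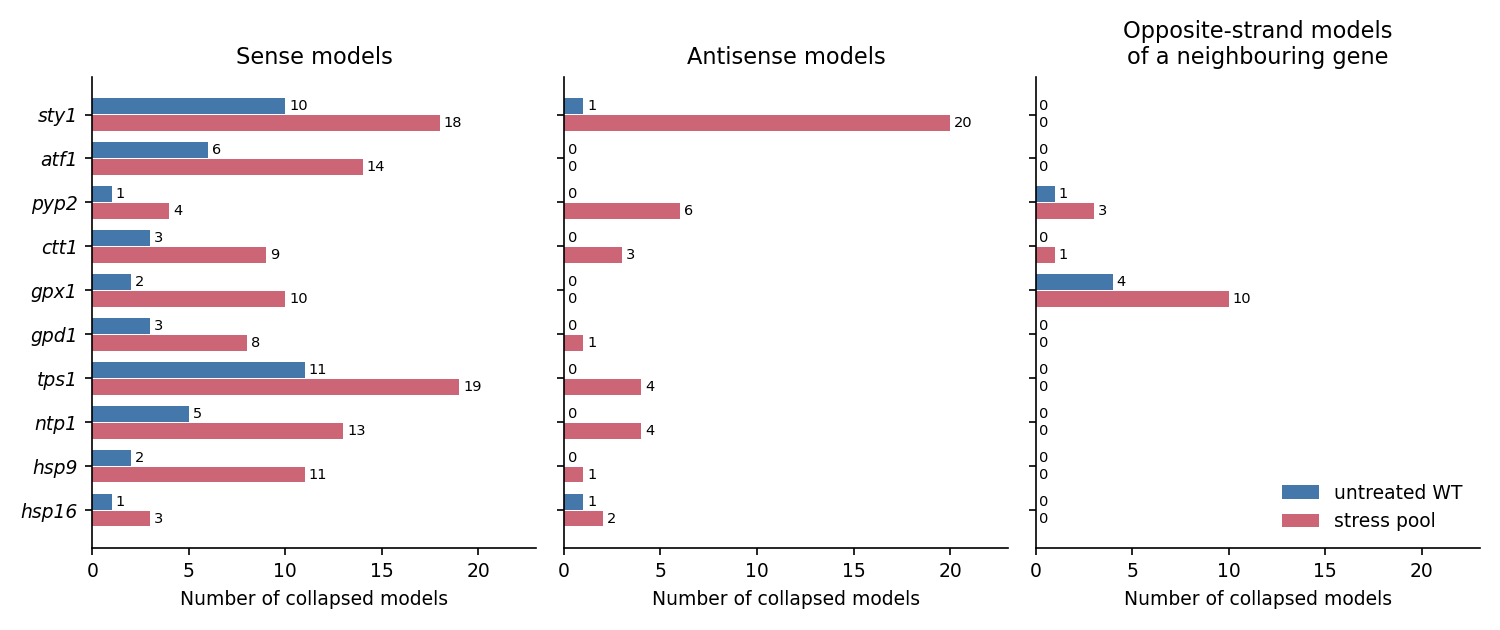
Number of collapsed transcript models over each gene in untreated WT (blue) and the stress pool (red), split into sense models, antisense models and opposite-strand models that belong to a neighbouring gene; the number stands beside each bar. Sense models were found at all 10 genes in both libraries, while antisense models were found at 2 genes in untreated WT and at 8 in the stress pool.

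Starts within 50 nt were joined into clusters, and the commonest start lay within 10 nt of the annotated start of the gene in 8 of 10 genes, against 74.1% of 4429 genes. The leaders, counted from that start to the base before the first coding base on the genome, were 223 nt at *sty1*, 1436 nt at *atf1*, 368 nt at *ctt1*, 46 nt at *gpx1*, 248 nt at *gpd1*, 165 nt at *tps1*, 507 nt at *ntp1*, 44 nt at *hsp9* and 71 nt at *hsp16*. The genes of the small proteins Gpx1, Hsp9 and Hsp16 therefore had the shortest leaders, and that of *atf1* was the longest. The leader of *atf1* contains an annotated intron of 855 nt (chrII:1546465-1547319), which was removed in 5 models of untreated WT and 12 of the stress pool and leaves 581 nt of exonic leader. At the commonest start, 8 of the 10 leaders held no ATG, against 56.5% of 4798 genes, and those of *atf1* and *pyp2* held 1.

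The remaining genes were *hsp9*, whose commonest start lay 27 nt downstream of the annotated one, and the phosphatase gene *pyp2*. All 5 sense models of *pyp2*, 1 in untreated WT and 4 in the stress pool, began at 799 to 801 nt before the first coding base, whereas the annotated leader is 167 nt. The commonest start, chrI:5202024 on the plus strand, lay 632 nt upstream of the annotated one. A shift of at least 100 nt upstream was found in 1 of the 10 genes, against 8.87% of all genes. The cAMP response element printed above for *pyp2* lies upstream of this start and outside the window around the annotated start.

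Starts further upstream were found in 6 of the 10 genes. In untreated WT, 2 genes had a sense model that began at least 100 nt upstream of the commonest start, against 14.1% of all genes, and in the stress pool 6 genes did, against 44.4%. At *sty1* 1 model in untreated WT and 2 in the stress pool began at the same base, 893 nt before the first coding base (chrI:208806), with 10 ATG in the longer leader. At *hsp9* a model in untreated WT began 645 nt and one in the stress pool 650 nt upstream, with 9 ATG in the leader. All start clusters of *hsp9*, the commonest included, lay within the annotated RNA SPNCRNA.1071 (chrI:5320613-5321854) on the same strand. These were the genes whose long leaders recurred in both libraries. The remaining long leaders came from the stress pool alone. They were a start 1903 to 1918 nt upstream of *atf1* in 3 models, and single models 484 nt upstream of *gpx1*, 772 nt upstream of *tps1*, 939 nt upstream of *hsp9* and 236 nt upstream of *hsp16*. Leaders with many ATG were common among them: 9 in the *gpx1* model, 10 in the *tps1* model and 14 in the *hsp9* model, but 1 in the *hsp16* model. The distal and the commonest start of *atf1* both lay within the annotated RNA SPNCRNA.1441 (chrII:1545428-1546254). At *atf1*, 1 of the 3 long models kept the leader intron and held 18 ATG.

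Over all 10 genes 31 start clusters were found, 13 in both libraries, 3 in untreated WT alone and 15 in the stress pool alone. The share of such clusters over all genes is not given, so the counts only describe these 10. Starts inside the coding sequence were few. In untreated WT 1 gene had one, *tps1*, 35 nt past the first coding base, against 21.0% of all genes. In the stress pool 4 genes had 5 such models, at 706 nt in *atf1*, 493 nt in *ctt1*, 111 nt in *gpd1* and 499 and 868 nt in *ntp1*, against 50.2%. The untreated WT library alone also held starts 1321 and 123 nt upstream of *atf1*, in 1 model each, both of which begin inside its annotated leader. None of the late starts recurred between libraries. The authors' collapsing joined a model with a shorter 5′ end to a longer one of the same structure, so a downstream start is visible here only where the 3′ end or splicing also differed.

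**Figure D2:**
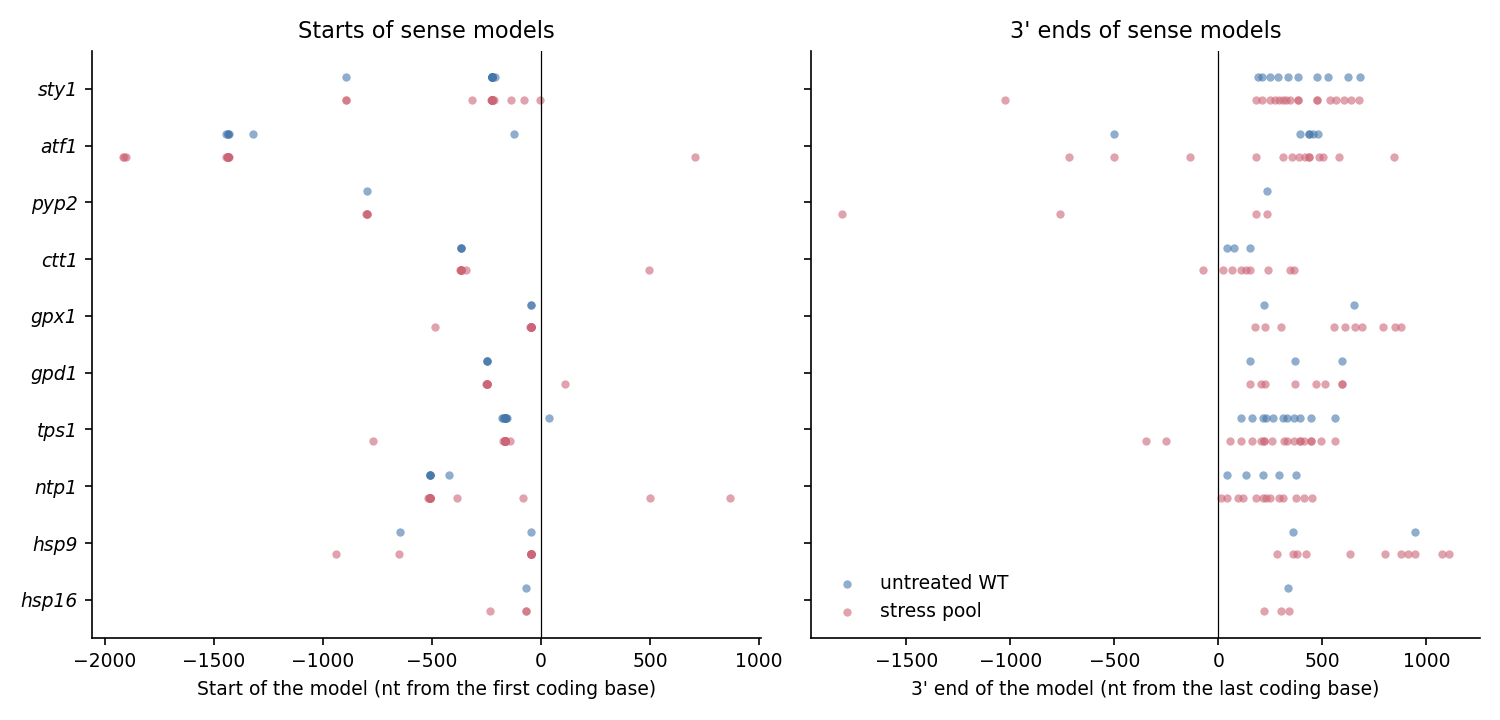
Starts (left, in nt from the first coding base) and 3′ ends (right, in nt from the last coding base) of every sense model of the 10 genes, 1 point per model, untreated WT in blue and the stress pool in red; the vertical line marks the coding base. The *pyp2* models all start 799 to 801 nt upstream, and 3′ ends reach 1111 nt past the coding sequence at *hsp9*; models were joined by their 5′ ends and kept apart by their 3′ ends, so the panels cannot be compared in spread.

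The 3′ ends of the models were grouped with a shorter distance than the starts, 25 nt, and the 10 genes had 79 end clusters, or 47 when ends were joined over 50 nt as the starts were. Because the collapsing joined models that differed at the 5′ end and kept those with different 3′ ends apart, the number of end clusters cannot be set against the number of start clusters. All 35 clusters of untreated WT were also found in the stress pool, the larger library, which had 44 of its own. Clusters were linked over both libraries together, so a shared cluster need not hold the same base in both. No share over all genes stands beside these counts, so they are not read as particular to the 10 genes. The median was 7.5 end clusters after the coding sequence per gene, against 5 over 4655 genes, and the ends of complete models spanned a median of 472.5 nt, against 328 nt over 4441 genes. The span was widest at *hsp9*, where ends lay 280 to 1111 nt past the last coding base, and at *gpx1*, from 178 to 879 nt. It was 664 nt at *atf1*, 507 nt at *tps1*, 500 nt at *sty1*, 445 nt at *gpd1*, 437 nt at *ntp1*, 341 nt at *ctt1* and 119 nt at *hsp16*. At *pyp2*, with 3 complete models, it was 51 nt. Every trailer of *hsp9* was longer than its coding sequence of 207 nt. A span is taken over more ends where a gene has more models. The narrowest spans were at the genes with fewest sense models, *pyp2*, with 1 in untreated WT and 4 in the stress pool, and *hsp16*, with 1 and 3. The widest spans were not at the genes with most models. *tps1*, with 11 sense models in untreated WT and 19 in the stress pool, spanned 507 nt. *hsp9*, with 2 and 11, spanned 831 nt, and *gpx1*, with 2 and 10, spanned 701 nt. The part of model number in these spans was not tested.

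*tps1* illustrates the spread, with ends in untreated WT in 9 clusters between 110 and 562 nt past the last coding base, all of them found again in the stress pool. *hsp9* had only 2 ends in untreated WT, at 360 and 944 nt, and 10 end clusters in the stress pool. *gpx1* likewise had 2 ends in untreated WT, at 221 and 652 nt, and 10 in the stress pool. Each of these untreated WT ends recurred in the stress pool.

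The hexamer AATAAA was found in the last 50 nt before 6 of 42 distinct ends in untreated WT (14.3%) and 11 of 94 in the stress pool (11.7%), counted over the 10 genes, against 14.6% and 13.2% for all protein-coding genes. It was present at the commonest position of 1 or more end clusters of *sty1*, *atf1*, *gpx1*, *tps1*, *hsp9* and *hsp16*. The last 30 bases of the end clusters that were found in both libraries and carried it there are shown from ASM294v3, each sequence ending at the last base of the model, with the copy of the hexamer nearest to that base in capitals.
sty1, 383 nt past the last coding base, chrI:206481-206510, minus strand: gttgAATAAAtcaccgaacttctctttttg
sty1, 602 nt past, chrI:206262-206291, minus strand: atgaagttaAATAAAaatcttaaaaacgtt
gpx1, 221 nt past, chrII:2788850-2788879, minus strand: aAATAAAtaacattaattatgttgcgcttc
tps1, 395 nt past, chrI:3481221-3481250, plus strand: aaaagAATAAAtgttttgttatttaacctt
hsp9, 944 nt past, chrI:5319455-5319484, minus strand: AATAAAagaactaaaataatgtttctacac
hsp16, 337 nt past, chrII:2660153-2660182, minus strand: taaataaataAATAAAtatttttttattcc
The hexamer began 20 to 30 nt before the end in all 6. Runs of A in the genome after an end were also counted, since they can prime cDNA inside a transcript, but their part in these ends was not tested. Of the 20 bases after an end, at least 12 were A for 3 of 42 ends in untreated WT (7.14%, all genes 9.42%) and 10 of 94 in the stress pool (10.6%, all genes 9.53%). The *sty1* end at 383 nt is followed by 19 A of 20, and the *hsp16* end at 303 nt by 16 of 20.

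Sense models that stopped inside the coding sequence were found at 1 gene in untreated WT, against 23.7% of all genes, and at 5 genes in the stress pool, with 9 models, against 52.0%. At *atf1* a model in each library ended at the same base, chrII:1548858, 503 nt before the last coding base. Both were spliced in the leader and held 1198 of the 1701 coding nt. The 60 bases around that end are given because it was the only early end found in both libraries, with the last base of the models in capitals.
atf1, plus-strand coding sequence, chrII:1548819-1548878: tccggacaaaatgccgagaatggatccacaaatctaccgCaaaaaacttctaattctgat
It is followed by 9 A in 20 bases, and no AATAAA preceded it within 50 nt. Further early ends in the stress pool lay 716 and 134 nt before the last coding base of *atf1*, 760 and 1812 nt before that of *pyp2*, 254 and 350 nt before that of *tps1* and 72 nt before that of *ctt1*. At *sty1* 1 model began at the distal start, 893 nt upstream, and stopped after 22 coding nt. An AATAAA stands directly before the start codon and begins 28 nt before this end, which is shown with the hexamer in capitals.
sty1, end of the short model, chrI:207892-207921, minus strand: tgAATAAAatggcagaatttattcgtacac
No sense model of the 10 genes reached a coding base of another gene, 0 in each library, against 13.5% and 24.3% of all genes with such a readthrough model. The annotated 3′ end of *dbl4*, a ubiquitin ligase gene, overlaps the 5′ end of *tps1* on the same strand, so 10 models of *tps1* in untreated WT and 18 in the stress pool touched an exon of *dbl4* outside its coding sequence.

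The coding sequence itself was interrupted by gaps in 6 models, all in the stress pool, at the 3 genes *tps1*, *sty1* and *gpd1*, against 17.4% of all genes there, and at none of the 10 in untreated WT, against 4.99%. Gaps were taken from the exon blocks of the models. In 3 models of *tps1* 190 nt of coding sequence were missing, with the GT and AG of an intron in capitals. This length is not a whole number of codons.
tps1 gap, chrI:3479831-3480020, plus strand: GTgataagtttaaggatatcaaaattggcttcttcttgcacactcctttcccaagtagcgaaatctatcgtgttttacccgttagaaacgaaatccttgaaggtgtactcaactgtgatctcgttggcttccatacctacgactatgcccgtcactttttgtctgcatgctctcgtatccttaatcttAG
In 2 models of *sty1* 69 nt were missing (chrI:207296-207364), a whole number of codons, leaving 981 of 1050 coding nt. This gap began with AT and ended with AG, and the same 7 bases stood at both of its edges, shown in capitals in the 31 bases around each copy.
sty1, 5′ copy, chrI:207351-207381, minus strand: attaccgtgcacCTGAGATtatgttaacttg
sty1, 3′ copy, chrI:207282-207312, minus strand: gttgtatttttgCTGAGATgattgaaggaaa
With a repeat at both edges, the position of the gap is fixed only to within the repeat, and whether it arose in the cell or during cDNA synthesis was not tested. In 1 model of *gpd1* 1441 nt were missing between GG and TC, which left 6 coding nt.

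Antisense models were then counted as those with exonic overlap on the opposite strand of a gene and no exonic overlap with any gene on their own strand, after annotated non-coding RNAs were removed from the reference. In untreated WT they were found at 2 of the 10 genes, *sty1* and *hsp16*, with 1 model each, against 8.41% of all genes. In the stress pool they were found at 8 genes, with 41 models, against 55.5%. The 41 were 20 at *sty1*, 6 at *pyp2*, 4 at *tps1*, 4 at *ntp1*, 3 at *ctt1*, 2 at *hsp16*, 1 at *gpd1* and 1 at *hsp9*. No antisense model was found at *atf1* or *gpx1* in either library, which at an unknown depth does not show that none was made. Genes with any antisense model had a median of 3 such models in the stress pool and 1 in untreated WT. At *sty1* and *pyp2* antisense models outnumbered sense models in the stress pool, 20 to 18 and 6 to 4. The share of all genes where they did so was not counted, so this only describes these 2 genes.

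*sty1* weighed heavily on where antisense models began. Of the 41 starts in the stress pool, 23 lay in the annotated 3′ UTR, 11 in the coding sequence, 6 downstream of the gene and 1 in the 5′ UTR. Without *sty1*, 6 lay in a 3′ UTR, 9 in a coding sequence and 6 downstream of the gene. In untreated WT 1 lay in the 3′ UTR, at *sty1*, and 1 downstream of the gene, at *hsp16*. Models over the whole coding sequence were found at both genes in untreated WT, against 2.84% of all genes, and at 7 genes with 15 models in the stress pool, against 17.6%. The exception among the 8 genes was *tps1*, where 3 models began 326 to 323 nt before the last coding base and 1 model touched only the end of the gene. Coding length differed among the genes covered whole, from 207 nt at *hsp9* and 432 nt at *hsp16* to 2208 nt at *ntp1*. Its part in these counts was not tested. Of the 41 models, 22 ended upstream of the commonest sense start of the host, as did both in untreated WT. At *sty1* 14 of 20 did so and at *tps1* 3 of 4, whereas at *pyp2*, with its distant start, 0 of 6 did.

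*sty1* had the most antisense models of the 10 genes in the stress pool. A single start cluster on the plus strand produced 17 of the 20 models in the stress pool and the 1 in untreated WT. Most of its starts lay at chrI:206814 and chrI:206818, 50 and 46 nt past the stop codon of *sty1*. The untreated WT model began at chrI:206814. The gene is on the minus strand and the annotated non-coding RNA SPNCRNA.622 lies opposite to it. Models from this cluster were 723 to 2332 nt long and ended between 377 nt past the first coding base of *sty1* and 1236 nt upstream of it. Of these, 8 models in the stress pool were spliced and none in untreated WT. They shared the first base of their intron and used 2 last bases, with 6 models for the longer intron and 2 for the shorter. Both introns are shown with their GT and AG in capitals.
sty1 antisense intron of 92 nt, chrI:207008-207099, plus strand: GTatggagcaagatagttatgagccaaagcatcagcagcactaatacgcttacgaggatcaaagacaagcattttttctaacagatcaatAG
sty1 antisense intron of 56 nt, chrI:207008-207063, plus strand: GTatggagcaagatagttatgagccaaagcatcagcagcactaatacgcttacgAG
The introns lie opposite the coding sequence of the kinase. At no other of the 10 genes was an antisense model spliced.

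**Figure D3:**
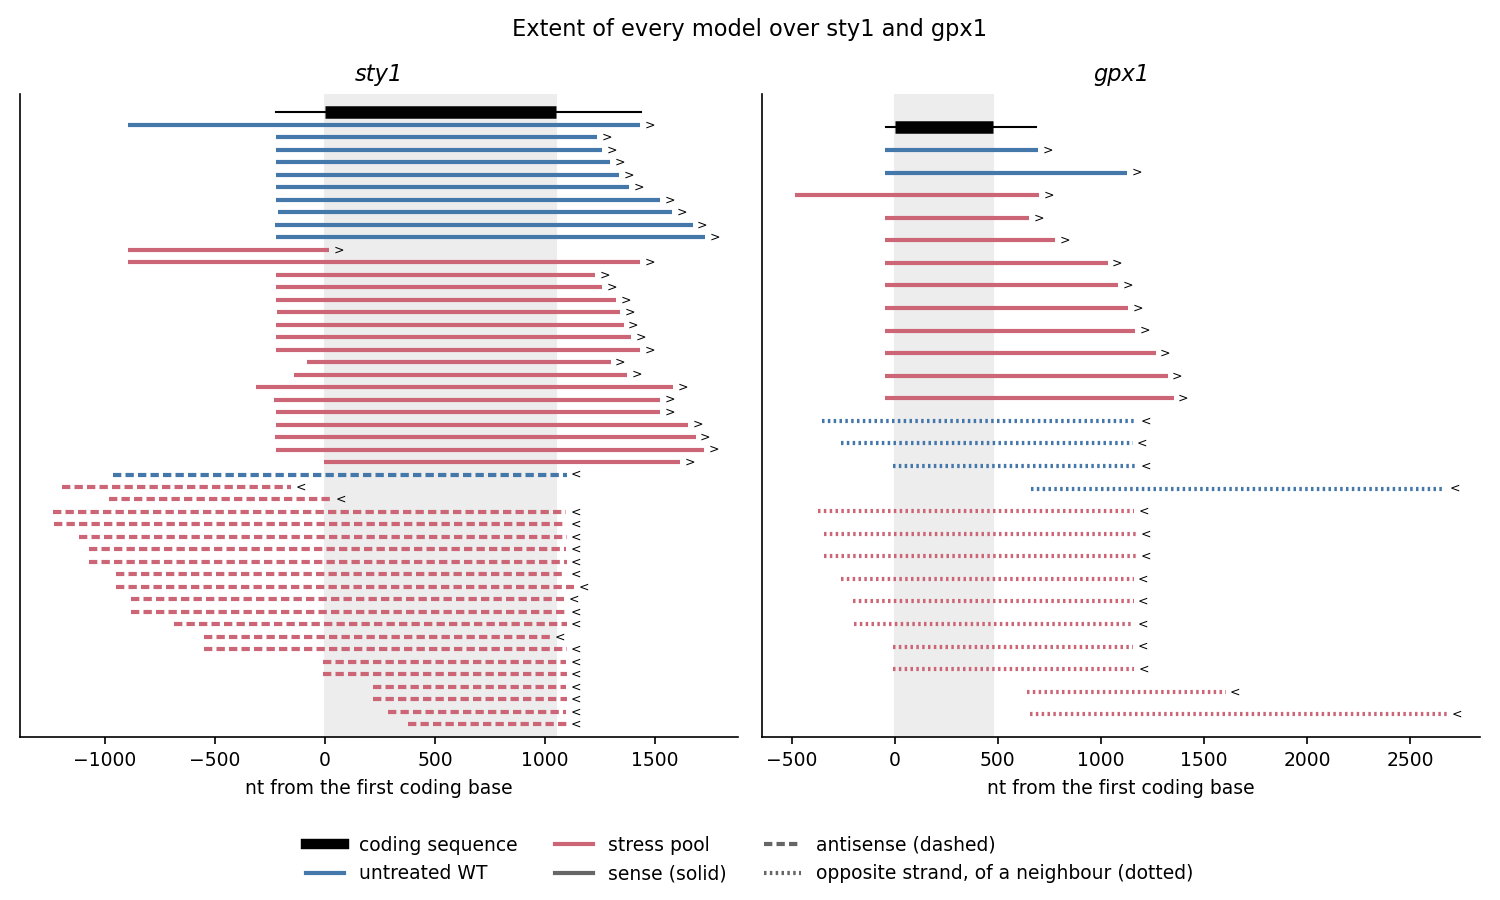
Extent of every model over *sty1* and *gpx1*, in nt from the first coding base, 1 line per model from its first to its last base with introns not drawn; black marks the annotated gene and its coding sequence, blue untreated WT, red the stress pool, solid lines sense models, dashed lines antisense models and dotted lines opposite-strand models of a neighbour, with the arrowhead at the right end giving direction. At *sty1* 18 of the 21 antisense models start just past the coding sequence, and at *gpx1* opposite-strand models of *gem7* cross the whole coding sequence in both libraries.

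*hsp16* was the gene where antisense looked most alike in both libraries. Its antisense models began 874 to 915 nt past the last coding base, were 1735 to 1804 nt long, 1 in untreated WT and 2 in the stress pool, and covered the whole gene. The model of untreated WT and 1 of the stress pool ended at the same base, 428 nt upstream of the first coding base. No annotated non-coding RNA lies opposite *hsp16*, nor opposite *ctt1*, where 3 models began 295, 735 and 812 nt past the last coding base and 1 of them covered the whole gene. The other 36 of the 41 models in the stress pool overlapped annotated non-coding RNAs on their own strand, and 20 of them were at *sty1*. With those RNAs kept in the reference, antisense remained at 2 genes, *ctt1* and *hsp16*, with 5 models in the stress pool, and at *hsp16* alone in untreated WT. Neither count has a share over all genes beside it, so they are not read as particular to these genes.

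Some antisense starts of the stress pool lay near a sense boundary inside the coding sequence. How often this occurs over all genes was not counted. In *pyp2* 3 antisense models began 766 to 787 nt before the last coding base and a sense model of the stress pool ended 760 nt before it. In *sty1* an antisense model began 1020 nt before that base and a sense model ended 1028 nt before it. In *tps1* 3 antisense models began 323 to 326 nt before it and a sense model ended 350 nt before it. Only in *ntp1* was the base shared: an antisense model and a sense model, both in the stress pool, began at chrII:207577 on opposite strands. The other 3 antisense models of *pyp2* began 51 to 101 nt past the last coding base and covered the whole coding sequence. In *ntp1* 2 models began 255 and 213 nt before the last coding base and 1 began 93 nt past it. At *gpd1* a single model of 1431 nt covered the coding sequence, and at *hsp9* a single model of 973 nt did.

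**Figure D4:**
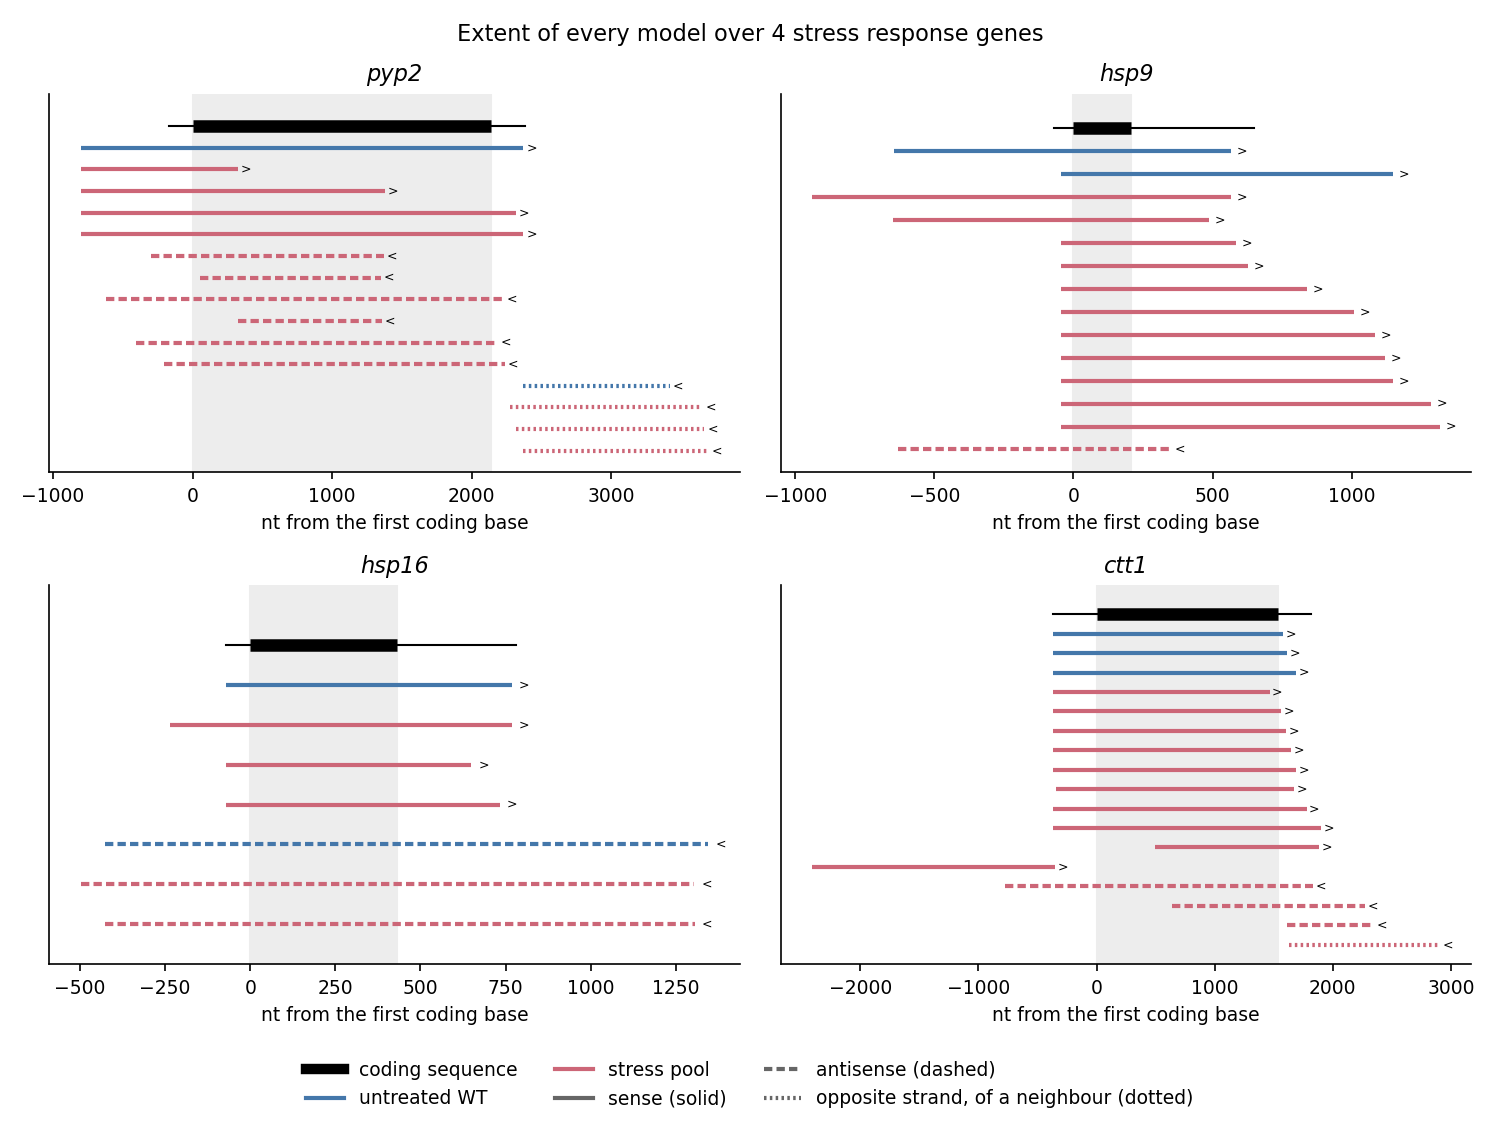
Extent of every model over *pyp2*, *hsp9*, *hsp16* and *ctt1*, in nt from the first coding base, drawn with the same colours and line styles as the map of *sty1* and *gpx1*. The sense models of *pyp2* begin 799 to 801 nt upstream, well before the annotated gene, and the *hsp16* antisense models span the gene in both libraries.

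*gpx1* had no antisense model by this definition, yet it was crossed on the opposite strand by transcripts of its neighbour *gem7*. In untreated WT 4 models holding the complete *gem7* coding sequence overlapped *gpx1*, and 3 of them ran over its whole coding sequence. In the stress pool 10 did, 8 of them over the whole coding sequence. Those 3 and 8 models began at chrII:2788375 to 2788391, were 1183 to 1524 nt and 1124 to 1536 nt long, and all held the complete *gem7* coding sequence. The annotated gene *gem7* (chrII:2788470-2788887) overlaps the annotated 3′ end of *gpx1* by a short stretch. In each library 1 model with 2 exons began at the next gene, *rec14*, and overlapped *gpx1* by 23 nt in untreated WT and 29 nt in the stress pool. A further stress pool model began at chrII:2787942 and overlapped *gpx1* by 43 nt. All the opposite-strand models over *gpx1* also touched an exon of *rec14*. In 3 models of the stress pool an intron of 49 nt (chrII:2788833-2788881) was removed. The peroxidase gene was thus covered by opposite-strand transcripts in untreated WT too, although they count as those of *gem7*. The overlaps of *emc10* models with the 3′ end of *pyp2* were shorter, 16 nt in 1 model of untreated WT and 17 to 109 nt in 3 of the stress pool, and 1 model of the stress pool from SPCC757.06 overlapped *ctt1* by 185 nt. Counting every opposite-strand model, 4 of the 10 genes had one in untreated WT, against 46.9%, and 9 in the stress pool, against 85.2%, and *atf1* was the gene with none.

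The stress pool held 3 further models on the sense strand with no coding base. One ran unspliced from the *atf1* start and ended within the leader intron at chrII:1547205, one covered 414 nt of the *ntp1* leader, and one came from *cox14*, a gene for a cytochrome c oxidase assembly protein, and ended 16 nt inside the annotated 5′ end of *ctt1*.

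The rest of the pathway was described by a list of 19 regulators, among them the MAP kinase kinase gene *wis1*, the Atf1 partner gene *pcr1* and the histidine kinase genes *mak1*, *mak2* and *mak3*, and a list of 21 effectors, such as superoxide dismutases, thioredoxins and heat shock proteins. All 19 regulators had sense models in both libraries, against 91.1% of all genes in untreated WT and 98.7% in the stress pool. They had antisense models at 0 genes in untreated WT, against 8.41% of all genes, and at 12 in the stress pool (63.2%, all genes 55.5%). Of the 21 effectors 17 had sense models in untreated WT, against 91.1% of all genes, and 21 in the stress pool, against 98.7%. They had antisense models at 1 gene in untreated WT, the Hsp70 gene *ssa1*, against 8.41% of all genes. In the stress pool they had them at 7 genes (33.3%, all genes 55.5%). The effectors without a sense model in untreated WT were *gst1*, *grx1*, *zym1* and *fbp1*. The most antisense models in the stress pool were found at *mak1* (9), at *fbp1* (8), the gene of fructose-1,6-bisphosphatase, at *gpd2* (7) and at the MAP kinase kinase kinase gene *win1* (6). Antisense models outnumbered sense models at *fbp1* (8 to 4) and *gst1* (3 to 1) and equalled them at *win1* (6 and 6). The share of all genes with more antisense than sense models was not counted. No member of either list had as many antisense models as *sty1*, with 20.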

How the data were processed

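RNA of untreated WT and of the stress pool was sequenced with PacBio Iso-Seq, 1 library each. The authors clustered the reads into isoforms, mapped them with minimap2 and collapsed them with TAMA Collapse. They allowed 100 nt between starts and 100 nt between splice junctions and used the setting for libraries without cap selection. An intron edge of a model may therefore stand for reads whose edges differed within that distance. The deposited files hold the resulting models of each library before merging. The score column of the deposited files is 40 on every model and was not used. No read numbers accompany the models, so depth is unknown and precision was given only as counting intervals.

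Models were placed on ASM294v3, while the submitters' processing notes name ASM294v2. Model ends fitted within the chromosomes, and 97.2% of 5499 distinct introns in untreated WT and 89.7% of 9081 in the stress pool had GT and AG at their ends, against 8 and 17 introns after a shift of 10 nt. Models off chromosomes I to III, 63 and 173, were left out. Genes and coding sequences came from RefSeq. All 10 members were named, with every protein-coding neighbour whose models reach them and, from 2 pathway lists, up to 4 genes with the most antisense models. *ssa1* and the effectors without sense models in untreated WT were named after their values were seen. The members and lists were chosen with earlier results of these data known. Classification was tested on simulated models. Python 3.11.15, SciPy 1.17.1 and Matplotlib 3.10.9 were used. Alternatives covered overlap, linking distances, readthrough, the antisense reference and scaling.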

Additional observations from a re-analysis of the deposited data

How the results depend on the processing

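Of 44 alternative settings over 19 values, 28 left the value within 1.5 times of that reported and 16 moved it further. All 10 genes kept a complete sense model in both libraries when 90% of the coding bases sufficed or readthrough models were left out. With 3′ ends linked over 50 nt, the end clusters were 21 in place of 35 in untreated WT and 47 in place of 79 in the stress pool. Of the clusters found in the stress pool, those with at least 2 models numbered 37 in place of 79 for 3′ ends and 14 in place of 28 for starts. Here models of both libraries were counted together, so such a cluster may hold only 1 model of the stress pool. The only start inside a coding sequence in untreated WT was lost when at least 100 or 300 nt were asked for, which left 0. Counting any exonic base of another protein-coding gene as readthrough gave 10 models in untreated WT and 18 in the stress pool in place of 0, all at *tps1*. In untreated WT, taking any opposite-strand model gave antisense at 4 genes with 7 models in place of 2 genes with 2 models, and keeping non-coding RNAs in the reference gave 1 gene with 1 model. In the stress pool keeping them gave 2 genes with 5 models in place of 8 with 41. The genes with at least 2-fold more sense models in the stress pool were 2 when scaled by sense models and 8 without scaling, in place of 1. No paired analysis was possible because each condition had 1 library and no replicate number, and for the same reason no replicate could be left out. The unknown depth limits every absence: a model found in 1 library may have been missed in the other by sampling.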
